A study of Oryza sativa Japonica Group with 6 samples.

Results

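The loci described here are the ethylene response and AP2-like transcription factor loci of rice that were measurable in shoots of the cultivar Lijiangxintuanheigu (LTH). Members were taken by the text of the authors' deposited table: a protein description with the words Ethylene-responsive transcription factor or the letters AP2, without the words Dehydration-responsive element-binding, at a locus where at least 2 of the 6 libraries reached an RPKM of 1 (RPKM being reads scaled to gene length in kilobases and to library total). Descriptions of 99 loci met the wording and 59 of these also met the level, among 19438 loci tested and 55800 loci in the table. Of the 59, 55 are described as transcription factors and 4 are other proteins whose names happen to hold the letters AP2; the counts below are over the 55 and the other 4 are given separately. The 55 comprised 5 of 8 loci described as AP2-like, all 4 described as holding an AP2/ERF and a B3 domain, and 46 of 82 described as ethylene response factors (ERFs).

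AP2/ERF proteins are plant transcription factors that share the AP2 DNA-binding domain. ERFs carry 1 such domain, and several act at the end of the ethylene pathway, where they bind GCC-box promoters. AP2-like proteins carry the domain in duplicate and are best known from meristems, flowers and seeds, while the B3 class joins an AP2 domain to a second kind of DNA-binding domain. Ethylene itself is made from S-adenosylmethionine through 1-aminocyclopropane-1-carboxylate (ACC). It is sensed by receptors that, when ethylene is absent, keep the kinase CTR1 active and the EIN2 to EIN3 branch off; ERF genes are direct targets of EIN3 in Arabidopsis. Other ERFs answer cold, drought, wounding or low oxygen without need of ethylene.

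The seedlings were 2 weeks old and were kept for 24 h at one of 3 temperatures, 11, 13 or 25 °C. Each temperature has 2 libraries, given as biological replicates. Stems and leaves, that is all of the plant above ground, were sequenced as bulk RNA, and no genotype other than LTH entered. The 25 °C plants are the warm comparison group. The series title concerns leaf rolling under cold. The labels do not say how many plants were pooled in a library or whether the replicates were grown apart, so p-values measure the spread between these libraries only.

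Library totals recovered from the values ran from 15964798 to 18754726 reads. A single read on 1 kb was then worth an RPKM of 0.0533 to 0.0626, which sets the precision of the low values below. Leaf marker transcripts for Rubisco, Rubisco activase and chlorophyll-binding proteins summed to an RPKM of 4587 to 6238 at 11 °C, 17172 to 17666 at 13 °C and 32095 to 45550 at 25 °C, so the leaf label was met. Rubisco activase made up most of the 25 °C sums (27017 and 36629, against 1015 and 650 at 11 °C), while both Rubisco small chains were highest at 13 °C, the first with 4757 and 3490, 10523 and 9566, and 3224 and 5236 at 11, 13 and 25 °C. Of 4 root markers, OsLsi1 (described as aquaporin NIP2-1) carried nearly all of the summed root signal, 0.796 to 0.814 at 11 °C, 10.9 to 11.9 at 13 °C and 12.9 to 18.1 at 25 °C; RCc3 was at 0 in 5 libraries. OsLsi2, OsNRT2.1 and the shoot meristem marker OSH1 were at 0 in the 3 replicate 1 libraries; they are among identifiers written in upper case, none of which has a replicate 2 value. In bulk tissue, fewer cells of a type and less RNA per cell cannot be told apart, and the part of these marker differences in the results was not tested.

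Differences were fitted on log2(RPKM + 1) with limma across all tested loci, and a locus is called, that is said to rise or fall, at a Benjamini-Hochberg adjusted p below 0.05. At 11 against 25 °C, 27 of the 55 factor loci rose, 10 fell and 18 were not called; of all loci tested 28.6% rose and 21.4% fell, 50% in either direction. Without replicate 1 at 11 °C the falls of factors were 6. At 13 against 25 °C, 17 rose, 12 fell and 26 were not called, beside 26.3% rising and 17% falling of all loci, 43.3% together. At 11 against 13 °C, 26 rose, 10 fell and 19 were not called, beside 17.2% rising and 18.2% falling of all loci, 35.4% together. The median log2 difference of the 55 was 0.76 at 11 against 25 °C, where that of all loci was 0.13. It was 0.21 at 13 against 25 °C, against 0.12 for all loci, and 0.85 at 11 against 13 °C, against -0.02. With loci that had no read in a group set at the bound that 3 reads give, the medians were 0.83, 0.21 and 0.85. The first is over 54 loci, as LOC_Os04g46400, with 0 reads at 25 °C and 1 at 11 °C, was left out of it. Quantile scaling lowered the median of all loci to -0.03 in both comparisons with 25 °C; at 13 °C, 25.2% of all loci then rose and 25.3% fell, and 17 factors rose and 13 fell. The first and second comparison share the 25 °C libraries. The differences below are as fitted, without subtracting these medians.

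The summed level of the factors was highest at 11 °C. The RPKM of all 55 summed to 5303 and 4924 in the 11 °C libraries, 3914 and 3644 at 13 °C against 3526 and 2990 at 25 °C, so no library of one temperature overlapped with another. The ERFs held nearly all of this, with summed RPKM of 5222 and 4818 at 11 °C. Abundant loci weigh most in such a sum, so it does not describe the class locus by locus. LOC_Os01g04020 had mean RPKM of 718 at 11 °C and 102 at 25 °C, and LOC_Os09g26420 had 1005 and 532. The highest of the 3 means lay at 11 °C for 32 loci, at 13 °C for 9 and at 25 °C for 14, where of all loci 35.2%, 32.3% and 32.4% did. The lowest mean lay at 11 °C for 10, at 13 °C for 17 and at 25 °C for 28, beside 32.2%, 25.7% and 42.1% of all loci.

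**Figure D1:**
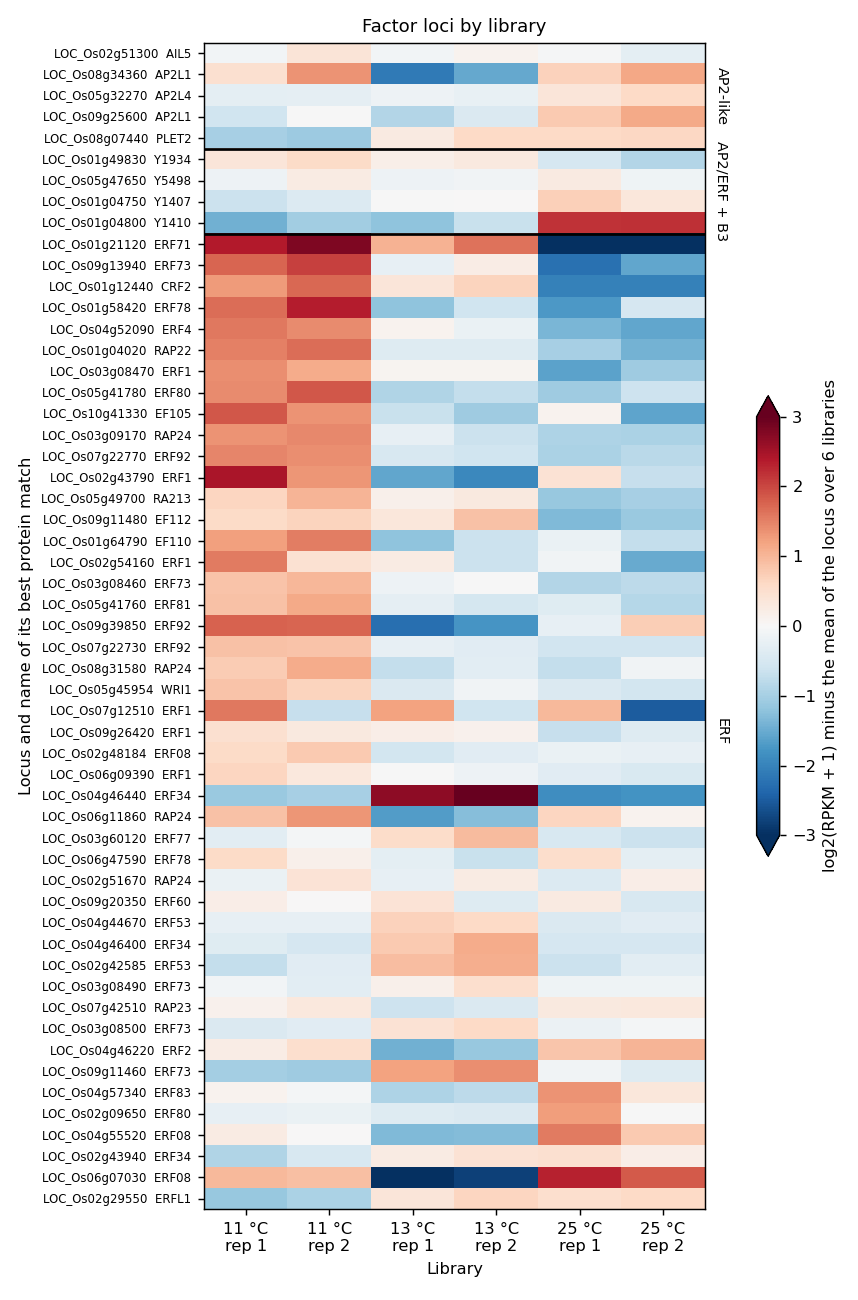
Each row is 1 of the 55 factor loci with the entry name of its best protein match, each column 1 of the 6 libraries, and colour gives log2(RPKM + 1) minus the mean of the locus over the 6 libraries. Replicates of a temperature resemble each other for most rows, and ERF rows high at 11 °C outnumber those high at 13 or 25 °C, with highest means for 29, 9 and 8 of the 46.

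Among these loci 47 of 55 were called in at least 1 comparison (67.2% of all loci were). An order in which each step was called, 11 above 13 above 25 °C, was met by 7 loci (3.21% of all), and the opposite order by none of the 55 (1.98% of all). At 8 loci the 13 °C level was below both others with each difference called (4.84% of all), and at 7 it was above both (9.03% of all). At 3 loci the calls against 25 °C went in opposite directions at 11 and 13 °C (1.68% of all). Some loci met the level needed for inclusion through 1 temperature only, which favours a peak there, among the factors as among all loci. No test was made of these shares.

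No locus described as AP2-like rose at 11 or 13 °C against 25 °C. The class follows the wording and domains were not counted, so loci with the domain in duplicate can stand among the ERFs. Of the 5 loci described as AP2-like, 3 fell and none rose at 11 against 25 °C. At 13 against 25 °C 3 fell and none rose, and at 11 against 13 °C 1 rose and 1 fell. With 5 loci these counts are a description, to be read beside the 28.6% and 26.3% of all loci that rose and the 21.4% and 17% that fell at 11 and 13 against 25 °C. LOC_Os08g34360 (chromosome 8, 21564093 to 21568499), whose best match is the Arabidopsis protein At1g16060, had RPKM of 7.58 and 14.5 at 11 °C, 0.409 and 1.11 at 13 °C against 8.95 and 12.7 at 25 °C. Only the 13 °C libraries were low; the others overlap. The log2 difference was -2.76 ± 0.36 (SE, 2 libraries a group) at 13 against 25 °C (adjusted p = 0.000667), a mean RPKM 14.3 times lower, and -0.02 ± 0.36 at 11 against 25 °C (adjusted p = 0.974; 95% interval -0.86 to 0.82). The 11 against 13 °C difference was 2.74 ± 0.36 (adjusted p = 0.00113).

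The second locus with that match behaved otherwise. LOC_Os09g25600 (chromosome 9, 15364891 to 15369757) read 3.72 and 6.01 at 11 °C, 2.84 and 4.22 at 13 °C against 11.3 and 14.7 at 25 °C. It was lower at both low temperatures, with log2 differences of -1.27 ± 0.30 at 11 °C (adjusted p = 0.00931) and -1.63 ± 0.30 at 13 °C (adjusted p = 0.00336), and the libraries at 11 and 13 °C overlapped. The 11 °C call was lost without replicate 1 at 11 °C (adjusted p = 0.0656) or replicate 2 at 25 °C (0.0598). LOC_Os08g07440 (chromosome 8, 4175872 to 4178549), matched to PLT2, a PLETHORA factor of the Arabidopsis root meristem, read 4.56 and 4.14 at 11 °C, 12.3 and 15.6 at 13 °C against 15.6 and 15.9 at 25 °C. Here the 11 °C libraries alone were low: -1.65 ± 0.23 against 25 °C (adjusted p = 0.000751) and -1.48 ± 0.23 against 13 °C (adjusted p = 0.00231).

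LOC_Os05g32270, matched to At2g41710, read 2.47 and 2.52, 2.83 and 2.67, and 4.45 and 5.41 at 11, 13 and 25 °C. Its falls of -0.76 ± 0.23 at 11 °C (adjusted p = 0.0253) and -0.66 ± 0.23 at 13 °C (adjusted p = 0.0483) were small, and the second was lost without any 1 of the 6 libraries (adjusted p = 0.0744 to 0.197), with a pseudocount of 0.1 (0.059) and in the fit on recovered reads (0.0535). The first was lost without either 11 °C replicate (0.102 and 0.105), replicate 2 at 13 °C (0.05) or replicate 2 at 25 °C (0.109). LOC_Os02g51300, matched to the AINTEGUMENTA-like factor AIL5, stood between 10.7 and 17.8 in all libraries and was not called, with log2 differences of 0.32 and 0.18 against 25 °C.

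The 4 loci with AP2/ERF and B3 domains, the class named RAV in Arabidopsis, were the only group described by rice proteins alone. LOC_Os01g04800 (chromosome 1, 2202264 to 2203860) was the factor with the largest fall at 11 °C. It read 15.8 and 21 at 11 °C, 18.6 and 27.7 at 13 °C against 205 and 209 at 25 °C. The mean was 11.2 times lower at 11 °C (log2 difference -3.44 ± 0.26, adjusted p = 4.61e-05) and 8.93 times lower at 13 °C (-3.13 ± 0.26, adjusted p = 8.14e-05), and the 11 and 13 °C libraries overlapped. Summed over the 4 loci, the B3 class had RPKM of 227 and 225 at 25 °C and 49.4 to 61.0 in the other libraries, with LOC_Os01g04800 the largest part at 25 °C and LOC_Os01g49830 at 11 and 13 °C.

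LOC_Os01g49830 (chromosome 1, 28619484 to 28621118) moved the other way, with 32.6 and 37.8 at 11 °C, 28.6 and 30.9 at 13 °C against 17.4 and 13.1 at 25 °C. It rose by 1.17 ± 0.23 at 11 °C (adjusted p = 0.00363) and 0.93 ± 0.23 at 13 °C (adjusted p = 0.0117); the 13 °C call was lost without replicate 2 at 13 °C (0.0735) or at 25 °C (0.0559). LOC_Os01g04750, the neighbour of LOC_Os01g04800 at a distance of 46.3 kb on the same strand, read 0.739 and 1.02, 1.66 and 1.73, and 3.45 and 2.42 at 11, 13 and 25 °C, and fell at 11 °C by 1.06 ± 0.23 (adjusted p = 0.00561). Its difference at 13 °C of -0.53 ± 0.23 (adjusted p = 0.0912) was called under quantile (0.0189) and median-ratio scaling (0.0392). LOC_Os05g47650 stood at 0.546 to 1.05, just at the level needed for inclusion, and was not called.

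Of the 46 ERFs, 26 rose and 5 fell at 11 against 25 °C, beside 28.6% and 21.4% of all loci. At 13 against 25 °C 16 rose and 8 fell, beside 26.3% and 17% of all loci. At 11 against 13 °C 25 rose and 9 fell, beside 17.2% and 18.2%. All 7 loci with the called order 11 above 13 above 25 °C were ERFs. The locus with the largest rise on the log2(RPKM + 1) scale in both comparisons with 25 °C was LOC_Os01g21120 (chromosome 1, 11783910 to 11785001), matched to ERF071, a factor of low-oxygen responses in Arabidopsis. It read 83.7 and 112 at 11 °C, 32.2 and 49.2 at 13 °C against 0 and 0.108 at 25 °C; the last pair rests on 0 and 2 reads. No library overlapped with another temperature. The log2 difference was 6.54 ± 0.28 at 11 °C (adjusted p = 8.58e-06) and 5.28 ± 0.28 at 13 °C (adjusted p = 1.98e-05). The ratio of summed reads, scaled to library totals, was 1710 (exact 95% interval 473 to 14100) at 11 °C and 713 (197 to 5890) at 13 °C, intervals that cover counting error only. By read ratio LOC_Os04g46440, described below, was above it at 13 °C with an overlapping interval.

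LOC_Os01g12440 (chromosome 1, 6813714 to 6815546), matched to the cytokinin response factor CRF2, was likewise almost silent at 25 °C, with 1 read in each library (0.0342 and 0.0297). It read 9.23 and 12.9 at 11 °C and 4.41 and 5.68 at 13 °C, differences of 3.53 ± 0.26 (adjusted p = 4.24e-05) and 2.54 ± 0.26 (adjusted p = 0.00021) against 25 °C. The read ratios were 352 (exact 95% interval 97 to 2910) and 160 (43.8 to 1320). For both loci the step from 13 to 11 °C was smaller: 1.26 ± 0.28 for LOC_Os01g21120 (adjusted p = 0.01) and 0.99 ± 0.26 for LOC_Os01g12440 (adjusted p = 0.0198). The step of LOC_Os01g21120 was lost without replicate 2 at 11 °C (0.0787) or replicate 1 at 13 °C (0.0761). That of LOC_Os01g12440 was lost without the same libraries (0.12 and 0.116) and with no filter on low values (0.0561).

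The most abundant of the 7 was LOC_Os01g04020 (chromosome 1, 1746416 to 1748549), matched to RAP2-2 of Arabidopsis. It read 678 and 758 at 11 °C, 178 and 181 at 13 °C against 117 and 87 at 25 °C. The level at 11 °C was 7.05 times that at 25 °C (2.82 ± 0.23, adjusted p = 6.9e-05) and 4 times that at 13 °C (1.99 ± 0.23, adjusted p = 0.000671). The rise at 13 °C of 0.83 ± 0.23 (adjusted p = 0.0224) was lost without either 13 °C replicate (0.106 and 0.123) or replicate 2 at 25 °C (0.067), with no filter (0.0508) and under median-ratio scaling (0.084).

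LOC_Os04g52090 (chromosome 4, 30939177 to 30940275), matched to ERF4 of tobacco, read 125 and 111, 44.2 and 35.6, and 15.2 and 13.1 at 11, 13 and 25 °C. Its steps were nearly equal on the log2 scale, 1.55 ± 0.22 from 13 to 11 °C (adjusted p = 0.00146) and 1.43 ± 0.22 from 25 to 13 °C (adjusted p = 0.00133). LOC_Os09g13940 (chromosome 9, 8199884 to 8203350), matched to ERF073, read 68 and 83.8, 16.2 and 22.9, and 3.32 and 5.96. It was 16.4 times higher at 11 than at 25 °C (3.80 ± 0.30, adjusted p = 5.77e-05) and 4.21 times higher at 13 °C (1.89 ± 0.30, adjusted p = 0.00163). The remaining pair, LOC_Os03g08460 and LOC_Os03g08470, are neighbours and are described with their cluster below. Of the other ERF073 matches, LOC_Os03g08460 also rose at 11 against 25 °C, LOC_Os09g11460 fell, and LOC_Os03g08490 and LOC_Os03g08500 were not called.

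**Figure D2:**
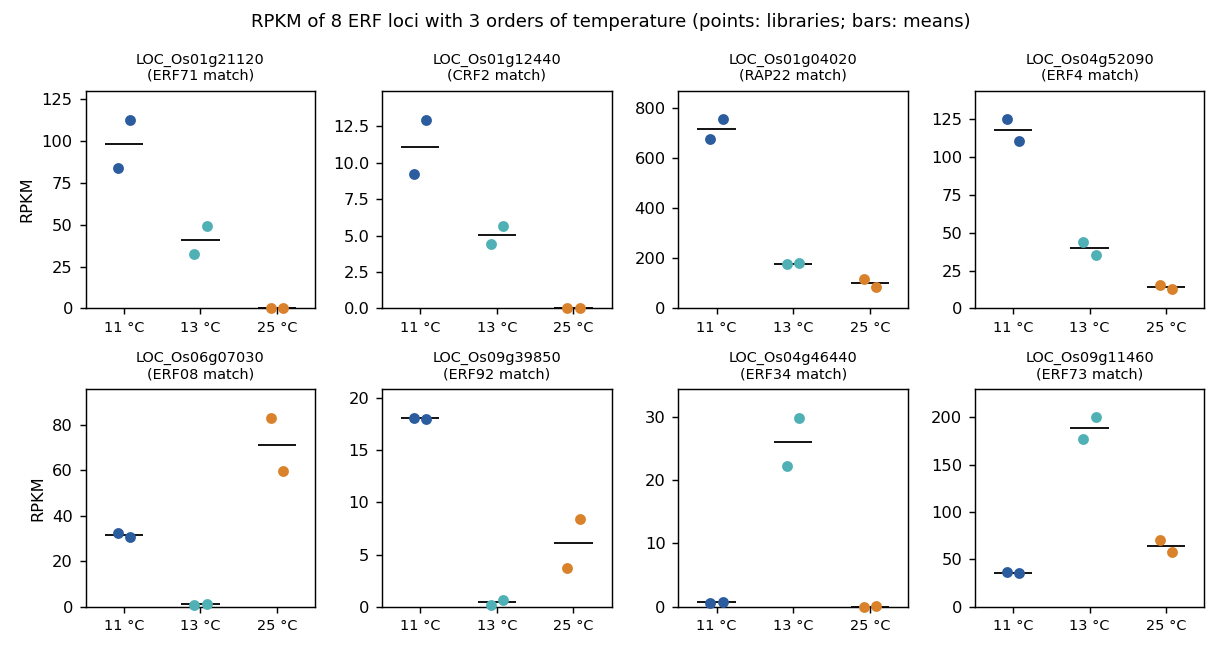
RPKM (linear axis from 0) of 8 ERF loci by temperature, with 1 point per library and a bar at the mean; titles give the entry name of the best match, where ERF92 is ERF1B. The upper row steps down from 11 to 13 to 25 °C; in the lower row LOC_Os06g07030 and LOC_Os09g39850 are lowest at 13 °C and LOC_Os04g46440 and LOC_Os09g11460 highest there.

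Most other ERFs that rose at 11 °C were not called at 13 against 25 °C. LOC_Os01g58420 (chromosome 1, 33766979 to 33768085), matched to ERF4 of Arabidopsis, a repressor with an EAR motif, read 85.3 and 137 at 11 °C, 10.7 and 16.8 at 13 °C against 7.19 and 17.9 at 25 °C. The 11 °C libraries stood apart and the other 4 overlapped. The rise was 3.13 ± 0.43 against 25 °C (adjusted p = 0.000662) and 2.92 ± 0.43 against 13 °C (adjusted p = 0.00176), while 13 against 25 °C gave 0.21 ± 0.43 (adjusted p = 0.725; 95% interval -0.78 to 1.20). LOC_Os05g41780, matched to the repressor ERF9 of Arabidopsis, showed the same order with 125 and 171, 24.2 and 27.9, and 21.3 and 29.7, a rise of 2.49 ± 0.26 at 11 °C (adjusted p = 0.000171) and 0.04 ± 0.26 at 13 °C.

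LOC_Os10g41330 (chromosome 10, 22213115 to 22214678), matched to ERF105, which acts in freezing tolerance in Arabidopsis, read 56.3 and 39.6 at 11 °C, 8.98 and 6.53 at 13 °C against 16.1 and 4.3 at 25 °C. Its rise at 11 °C was 2.34 ± 0.50 (adjusted p = 0.00567), and the difference at 13 °C of -0.14 ± 0.50 was not called. LOC_Os01g64790, matched to ERF110, read 18.6 and 23.4 at 11 °C and 2.63 to 6.35 in the other 4 libraries (1.84 ± 0.31 against 25 °C, adjusted p = 0.00173). LOC_Os09g11480 (chromosome 9, 6404474 to 6406039), matched to ERF112, differed from these and rose at both temperatures, from 8.72 and 10.4 at 25 °C to 35.4 and 38 at 11 °C (1.84 ± 0.25, adjusted p = 0.000599) and 29.8 and 43.7 at 13 °C (1.82 ± 0.25, adjusted p = 0.00077), with 0.02 ± 0.25 between 11 and 13 °C (95% interval -0.55 to 0.59). LOC_Os05g49700, matched to RAP2-13, also rose at both, from 0.619 and 0.807 to 4.64 and 6.23 at 11 °C (1.90 ± 0.24, adjusted p = 0.000422) and 3.01 and 3.42 at 13 °C (1.30 ± 0.24, adjusted p = 0.00314).

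The following 4 loci were also highest at 11 °C. LOC_Os03g09170, matched to RAP2-4, read 7.91 and 8.58 at 11 °C and 0.819 to 1.95 elsewhere (2.33 ± 0.24 against 25 °C, adjusted p = 0.000157). LOC_Os08g31580, with the same match, read 86.2 and 111 at 11 °C and 30.4 to 47.3 elsewhere (1.34 ± 0.28, adjusted p = 0.00528). LOC_Os05g45954, matched to WRI1, a regulator of oil synthesis in Arabidopsis seeds, read 2.9 and 2.39 at 11 °C and 0.463 to 0.988 elsewhere (1.26 ± 0.21, adjusted p = 0.00161). All 3 also rose at 11 against 13 °C, by 1.84, 1.45 and 1.03. LOC_Os05g45954 reached an RPKM of 1 at 11 °C only. It met the level through that group, so its rises are no separate evidence of an 11 °C peak. LOC_Os02g48184, matched to ERF008, read 21.8 and 25.6 at 11 °C and 9.45 to 12.4 elsewhere; its rise of 0.90 ± 0.22 against 25 °C (adjusted p = 0.0106) and of 1.13 ± 0.22 against 13 °C (adjusted p = 0.00607) were both lost without replicate 2 at 11 °C (0.0814 and 0.0523).

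At 8 loci, 7 of them ERFs, the 13 °C level was below both others. The largest difference was at LOC_Os06g07030 (chromosome 6, 3337083 to 3338612), matched to ERF008. In Arabidopsis ERF008 belongs to the DREB side of the family, although its description does not say so. Other loci counted as ERFs can belong there too, as the class follows the wording alone. LOC_Os06g07030 read 32.4 and 30.6 at 11 °C, 0.771 and 1.43 at 13 °C (20 and 41 reads) against 82.9 and 59.6 at 25 °C. The 13 °C mean was 64.8 times lower than at 25 °C (-5.10 ± 0.26, adjusted p = 1.87e-05), and the 11 °C mean was 28.6 times that at 13 °C (3.97 ± 0.26, adjusted p = 9.19e-05). The fall at 11 °C of -1.13 ± 0.26 (adjusted p = 0.00829) was lost without replicate 1 at 25 °C (0.0598). LOC_Os04g55520 (chromosome 4, 33030611 to 33031843), the other ERF008 match in this group, read 58.7 and 49.8, 18.9 and 19.4, and 146 and 84.8 at 11, 13 and 25 °C, with -2.48 ± 0.28 at 13 °C (adjusted p = 0.000344) and -1.03 ± 0.28 at 11 °C (adjusted p = 0.0167; 0.0887 without replicate 2 at 11 °C, 0.0754 without replicate 1 of the 25 °C group).

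In LOC_Os09g39850 (chromosome 9, 22847286 to 22847936), matched to ERF1B, the factor that joins ethylene and jasmonate signals in Arabidopsis, the order was 11 above 25 above 13 °C. It read 18.1 and 18 at 11 °C, 0.181 and 0.656 at 13 °C (2 and 8 reads) against 3.75 and 8.45 at 25 °C. It rose by 1.51 ± 0.36 at 11 °C (adjusted p = 0.00929; 0.0516 without replicate 1 at 25 °C) and fell by 2.26 ± 0.36 at 13 °C (adjusted p = 0.0016). The difference between the low temperatures was 3.77 ± 0.36 (adjusted p = 0.000291), a mean 43.1 times higher at 11 °C. LOC_Os02g43790 (chromosome 2, 26422182 to 26423485), matched to ERF1 of tomato, had the same order with 25.9 and 11.4 at 11 °C, 0.678 and 0.286 at 13 °C against 5.72 and 2.05 at 25 °C. Its replicates were far apart, yet all 3 differences were called: 2.01 ± 0.47 at 11 °C (adjusted p = 0.00863; 0.0582 without replicate 2 at 25 °C), -1.62 ± 0.47 at 13 °C (adjusted p = 0.0247; 0.101 without replicate 2 at 13 °C, 0.151 without replicate 1 of the 25 °C group and 0.0886 with no filter) and 3.63 ± 0.47 at 11 against 13 °C (adjusted p = 0.00103).

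The other 3 ERFs with a 13 °C level below both others differed less between 11 and 25 °C. LOC_Os06g11860 (chromosome 6, 6304588 to 6306661), matched to RAP2-4, read 34.4 and 46.7, 5 and 6.92, and 29.1 and 19.5 at 11, 13 and 25 °C (-1.85 ± 0.29 at 13 °C, adjusted p = 0.00144; 0.73 ± 0.29 at 11 °C, adjusted p = 0.066, or 0.0472 without replicate 1 at 25 °C). LOC_Os04g46220 (chromosome 4, 27370862 to 27373629), matched to the tobacco activator ERF2, read 36.1 and 44.1, 10.8 and 13.4, and 55.5 and 63.5 (-2.21 ± 0.22 at 13 °C, adjusted p = 0.00021; -0.56 ± 0.22 at 11 °C, adjusted p = 0.0688, called under quantile, 0.0105, and median-ratio scaling, 0.00549). LOC_Os07g42510, matched to RAP2-3, read 46 and 52, 26.6 and 30.8, and 51 and 52.2 (-0.83 ± 0.20 at 13 °C, adjusted p = 0.0124). That call was lost without replicate 1 at 13 °C (0.0972), and its 11 against 13 °C rise of 0.75 ± 0.20 (adjusted p = 0.0233) was lost without any 1 of the 4 libraries at these temperatures (0.0699 to 0.154). The eighth locus is the AP2-like LOC_Os08g34360.

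At 7 loci, all ERFs, the 13 °C level was above both others. Among them LOC_Os04g46440, LOC_Os04g46400 and LOC_Os02g42585 reached an RPKM of 1 at 13 °C only. They met the level through that group, so their place in this count is no separate evidence of a 13 °C peak. LOC_Os04g46440 (chromosome 4, 27539878 to 27540929), matched to ERF034, read 0.67 and 0.811 at 11 °C, 22.2 and 29.7 at 13 °C against 0 and 0.0518 at 25 °C, the last being 0 and 1 reads. The rise at 13 °C was 4.70 ± 0.24 (adjusted p = 1.82e-05; read ratio 944, exact 95% interval 169 to 37300), and the 11 °C mean was 35 times lower than at 13 °C (-3.94 ± 0.24, adjusted p = 7.43e-05). Its rise at 11 °C of 0.76 ± 0.24 (adjusted p = 0.0294), 28 reads against 1 and a read ratio of 26.9 (4.44 to 1100), was lost without either replicate at 11 °C (0.0877 and 0.144) or at 25 °C (0.114 and 0.0886), and with no filter (0.0719). LOC_Os04g46400, 21.5 kb away on the same strand and with the same match, was detected almost only at 13 °C: 14 and 22 reads there (1.45 and 2.07), 1 and 0 reads at 11 °C and none at 25 °C. It was at least 11.5-fold higher at 13 than at 25 °C, taking 3 reads over the 25 °C group as the limit, with a log2 difference of 1.46 ± 0.18 (adjusted p = 0.000462), and differed by -1.39 ± 0.18 at 11 against 13 °C (adjusted p = 0.000959).

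LOC_Os09g11460 (chromosome 9, 6387891 to 6389789), an ERF073 match, was the locus of this group called in all 3 comparisons beside LOC_Os04g46440. It read 36.7 and 35.5 at 11 °C, 177 and 201 at 13 °C against 70.2 and 57.7 at 25 °C. It rose by 1.55 ± 0.21 at 13 °C (adjusted p = 0.000749) and fell by 0.80 ± 0.21 at 11 °C (adjusted p = 0.0141), and the difference between 11 and 13 °C was -2.35 ± 0.21 (adjusted p = 0.000236). The fall at 11 °C was lost without either replicate at 11 °C (0.0614 and 0.0791) or replicate 1 at 25 °C (0.0553).

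LOC_Os02g42585 (chromosome 2, 25595412 to 25597607) and LOC_Os04g44670 are matched to ERF053, a drought-induced factor in Arabidopsis, and both peaked at 13 °C. The first read 0.161 and 0.51, 2.6 and 3.09, and 0.228 and 0.546 at 11, 13 and 25 °C (1.48 ± 0.22 at 13 against 25 °C, adjusted p = 0.00116). The second read 1.03 and 1.02, 2.86 and 2.64, and 0.775 and 0.899 (1.03 ± 0.19, adjusted p = 0.00342); its 11 against 13 °C call of -0.89 ± 0.19 was lost without replicate 2 at 11 °C (0.0529). LOC_Os03g60120, matched to ERF10 of Arabidopsis, read 47.6 and 57.9, 88.2 and 117, and 42.6 and 37.8 (1.32 ± 0.23 at 13 °C, adjusted p = 0.00262); its 11 against 13 °C call of -0.94 ± 0.23 was lost without replicate 1 at 11 °C (0.0994) or replicate 2 at 13 °C (0.124). The last of the 7, LOC_Os03g08500, is described with its neighbours.

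**Figure D3:**
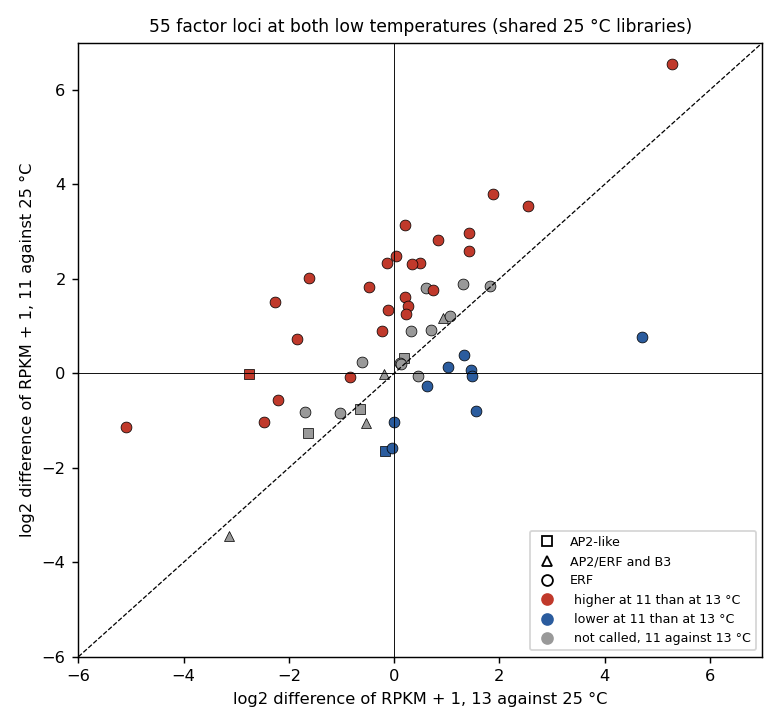
Log2 difference of RPKM + 1 against 25 °C for the 55 factor loci, 13 °C on the horizontal and 11 °C on the vertical axis, both from the same 25 °C libraries; the dashed line marks equal differences. LOC_Os01g21120 lies at 5.28 and 6.54, LOC_Os06g07030 at -5.10 and -1.13 and LOC_Os04g46440 at 4.70 and 0.76.

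Of the ERFs, LOC_Os02g29550 and LOC_Os02g43940 fell at 11 °C and were not called at 13 against 25 °C. LOC_Os02g29550 (chromosome 2, 17575090 to 17582228), matched to an ERF-like protein of Arabidopsis, At4g13040, read 24.7 and 28.1 at 11 °C, 71 and 87.3 at 13 °C against 78.7 and 83.7 at 25 °C. Its log2 difference was -1.59 ± 0.21 against 25 °C (adjusted p = 0.000576) and -1.54 ± 0.21 against 13 °C (adjusted p = 0.0013). LOC_Os02g43940, matched to ERF034, read 0.325 and 0.774 at 11 °C and 1.84 to 2.47 elsewhere (-1.03 ± 0.24 against 25 °C, adjusted p = 0.00755, and -1.03 ± 0.24 against 13 °C, adjusted p = 0.0117). Both its calls were lost without replicate 1 at 11 °C (0.0585 and 0.0814), the second also without replicate 2 at 13 °C (0.0622). LOC_Os04g57340 (chromosome 4, 34133866 to 34134438), matched to the repressor ERF7 of Arabidopsis, fell at 13 °C: it read 67 and 60 at 11 °C, 32.5 and 35.9 at 13 °C against 160 and 79.1 at 25 °C (-1.69 ± 0.32, adjusted p = 0.00384; -0.82 ± 0.32 at 11 °C, adjusted p = 0.0659, or 0.00539 without replicate 2 at 25 °C).

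The factors had a higher median level than the loci tested as a whole. The mean RPKM over 6 libraries had a median of 23.6 over the 55, where that of all loci tested was 8.45, and 8 factors had a mean of at least 100. RPKM is scaled by gene length, so these levels can be set beside each other. The highest was LOC_Os09g26420 (chromosome 9, 15959324 to 15962975), matched to rice ERF1, with 1070 and 939 at 11 °C, 878 and 842 at 13 °C against 473 and 591 at 25 °C. Its rise at 11 °C was 0.92 ± 0.25 (adjusted p = 0.0174) and the 0.70 ± 0.25 at 13 °C was not called (adjusted p = 0.056), though it was under quantile scaling (0.043), with no trend (0.0357), without replicate 2 at 25 °C (0.0281) and in the fit on recovered reads (0.0272). The 11 °C call was lost without either replicate at 11 °C (0.112 and 0.0744) or replicate 2 at 13 °C (0.0557), with no filter (0.0641), under median-ratio scaling (0.0727) and with the 4 libraries alone (0.056).

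LOC_Os09g20350 (chromosome 9, 12216432 to 12218346), matched to ERF060, and LOC_Os02g51670 (chromosome 2, 31648468 to 31650538), matched to RAP2-4, came next in mean level, and neither was called. LOC_Os09g20350 read 656 and 575, 761 and 443, and 692 and 409 at 11, 13 and 25 °C. The replicates differed more than the temperatures, and the 95% interval of the 11 against 25 °C log2 difference was -0.62 to 1.03. LOC_Os02g51670 read 305 and 463, 296 and 419, and 264 and 399, with replicate 2 the higher at each temperature and an interval of -0.54 to 0.96.

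LOC_Os07g12510, matched to ERF1 of tobacco, showed a wide gap between replicates, with 368 and 75 at 11 °C, 282 and 80.3 at 13 °C against 241 and 20.6 at 25 °C. Replicate 1 was the higher at every temperature. Within replicate 1 the 11 against 25 °C log2 difference was 0.61 and within replicate 2 it was 1.81, and with both the fit gave 1.21 ± 1.16 (adjusted p = 0.414). LOC_Os02g54160, matched to rice ERF1, had a like gap (428 and 199, 173 and 91.9, and 136 and 50.2), and its rise at 11 °C of 1.81 ± 0.54 (adjusted p = 0.0248) was lost without replicate 1 at 11 °C (0.127) or replicate 2 at 25 °C (0.141), with no filter (0.0911) and under median-ratio scaling (0.0845). LOC_Os06g09390, with the same match, read 120 and 95.3, 75.8 and 67.8, and 59.6 and 54.9, and its rise of 0.89 ± 0.21 (adjusted p = 0.0099) was lost without replicate 1 at 11 °C (0.0784) and under median-ratio scaling (0.0546). LOC_Os06g47590 and LOC_Os02g09650, matched to the Arabidopsis repressors ERF4 and ERF9, were called in no comparison, with RPKM of 18.4 to 45.3 and 5.04 to 18.6.

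Several factor loci are neighbours on their chromosome. With a gap of at most 100 kb between them, 14 pairs lay next to each other among factor loci of any level, and in 8 pairs, made of 14 loci, both passed the level. Neighbouring loci of similar sequence can share reads, and how the authors counted such reads is not given in the sources used here. On chromosome 3, 4 loci on the minus strand lie between 4343725 and 4373460, and their orders of temperature differ: LOC_Os03g08460 and LOC_Os03g08470 were highest at 11 °C, and LOC_Os03g08490 and LOC_Os03g08500 had their highest means at 13 °C. LOC_Os03g08460, an ERF073 match, read 2.92 and 3.36, 0.948 and 1.16, and 0.175 and 0.267 at 11, 13 and 25 °C. LOC_Os03g08470, a rice ERF1 match 3 kb away, read 42.3 and 34.4, 16.2 and 16.5, and 4.41 and 6.83. Both stepped down from 11 to 13 to 25 °C.

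The log2 rises of that pair at 11 against 25 °C were 1.76 ± 0.19 (adjusted p = 0.000222) and 2.59 ± 0.26 (adjusted p = 0.000144), and those at 13 °C were 0.75 ± 0.19 (adjusted p = 0.0147) and 1.42 ± 0.26 (adjusted p = 0.003). The 13 °C call of LOC_Os03g08460 was lost without replicate 2 at 13 °C (0.0852) or replicate 1 at 25 °C (0.0688) and under quantile scaling (0.0526), and the 11 against 13 °C call of LOC_Os03g08470 (1.17 ± 0.26, adjusted p = 0.0096) without replicate 1 at 11 °C (0.0657). LOC_Os03g08490, an ERF073 match, read 223 and 191, 264 and 333, and 216 and 216 and was called in no comparison (0.46 ± 0.23 at 13 °C, adjusted p = 0.145). LOC_Os03g08500, 3.7 kb from it and also an ERF073 match, read 107 and 114, 196 and 222, and 128 and 140. Its rise at 13 °C of 0.63 ± 0.21 (adjusted p = 0.038) was lost in 5 of 6 fits that left out 1 library, up to 0.225 without replicate 2 at 13 °C, and under median-ratio scaling (0.0734). Its 11 against 13 °C fall of -0.91 ± 0.21 (adjusted p = 0.0112) was lost without any 1 of the 4 libraries at these temperatures (0.0504 to 0.0964).

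Of the 3 pairs on chromosomes 9, 5 and 7, the first differed in order. LOC_Os09g11460 was highest at 13 °C, while its neighbour LOC_Os09g11480 at 14.7 kb rose at 11 and at 13 °C. LOC_Os05g41760, an ERF12 match, read 3.76 and 4.71 at 11 °C and 0.443 to 1.14 elsewhere (1.61 ± 0.25 against 25 °C, adjusted p = 0.00113), the same order as its more abundant neighbour LOC_Os05g41780 at 15.2 kb. The ERF1B pair LOC_Os07g22730 and LOC_Os07g22770, 19.6 kb apart, was high at 11 °C only. LOC_Os07g22730 had 28 and 30 reads at 11 °C, 4 and 3 at 13 °C and none at 25 °C, at least 18.5-fold higher at 11 than at 25 °C by the same limit (1.43 ± 0.16, adjusted p = 0.000234). LOC_Os07g22770 read 5.54 and 5.25, 0.713 and 0.581, and 0.227 and 0.362, 18.3 times higher at 11 than at 25 °C (2.31 ± 0.19, adjusted p = 7.39e-05).

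**Figure D4:**
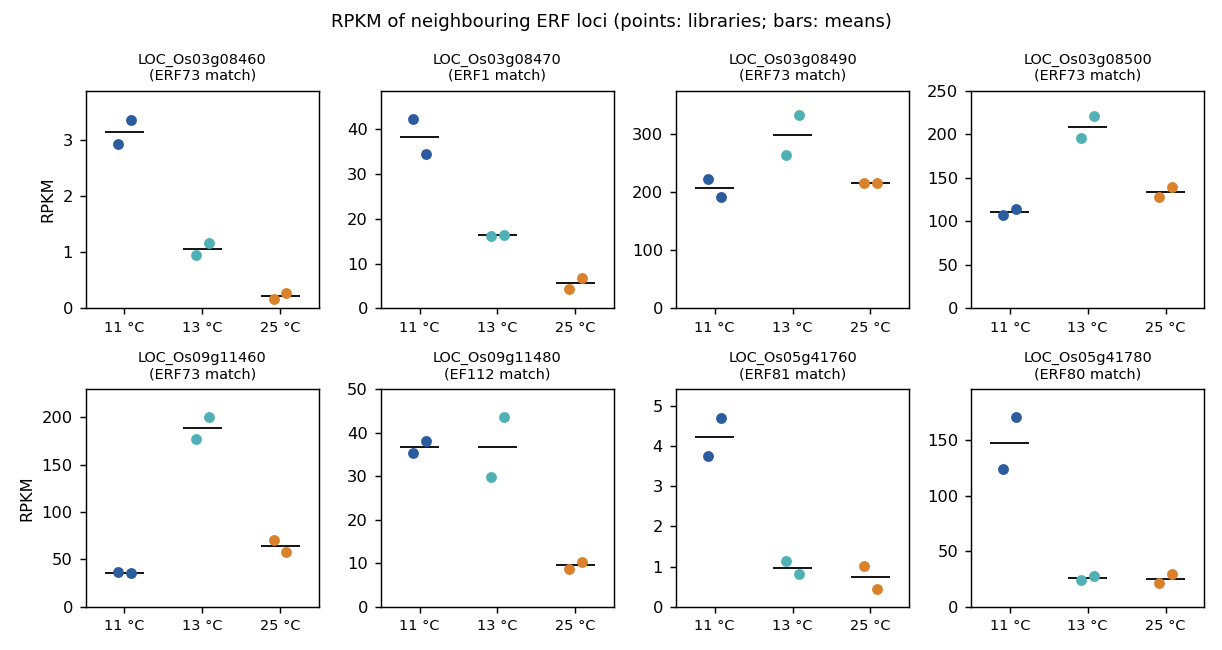
RPKM (linear axis from 0) of 8 neighbouring ERF loci by temperature, with 1 point per library and a bar at the mean; the upper row is the chromosome 3 cluster in order, the lower row the chromosome 9 and chromosome 5 pairs. Within the cluster LOC_Os03g08460 and LOC_Os03g08470 are highest at 11 °C, and LOC_Os03g08490 and LOC_Os03g08500 have their highest means at 13 °C.

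Loci that share a best match moved in different directions in some cases. Of 5 ERF073 matches, 2 rose and 1 fell at 11 against 25 °C, and of 3 ERF008 matches 1 rose and 2 fell. All 3 ERF1B matches rose, as did 5 of 6 described as ERF1 of rice, tobacco or tomato. Of all loci, 28.6% rose and 21.4% fell in that comparison. LOC_Os07g22730 and LOC_Os07g22770 reached an RPKM of 1 at 11 °C only. They met the level through that group, so their rises are no separate evidence for the ERF1B matches. A best match names the closest described protein, from Arabidopsis for 43 of the 55, and does not make the loci copies of one gene.

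The 39 factor loci below the level had RPKM of at most 1.99 in any library, 6 of them reached 1 in 1 library, and 10 were above 0 in all 6. The second highest of the 6 values decides entry. It was 0.856, 0.860 and 0.912 for the loci just outside (LOC_Os03g02650, LOC_Os03g22170 and LOC_Os02g32140) and 1.02, 1.45 and 1.67 for those just inside (LOC_Os05g47650, LOC_Os04g46400 and LOC_Os07g22730). The 4 other proteins taken by the wording are no AP2 factors. LOC_Os05g40780, matched to KRTCAP2, rose at 11 °C (1.03 ± 0.30, adjusted p = 0.0221), and so did both loci matched to the membrane fusion protein SNAP33, LOC_Os02g24080 (1.33 ± 0.22, adjusted p = 0.0015) and LOC_Os03g11380 (1.72 ± 0.31, adjusted p = 0.00242). LOC_Os03g11380 also rose at 13 °C (2.38 ± 0.31, adjusted p = 0.00061), and LOC_Os05g04370, matched to the phosphatase RPAP2, was not called.

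The ethylene pathway ahead of the factors was read from a list of 53 loci for synthesis, receptors and signalling, of which 42 passed the level. At 11 against 25 °C 14 rose and 8 fell, at 13 against 25 °C 9 rose and 12 fell, and at 11 against 13 °C 13 rose and 7 fell, to be read beside the shares of all loci given above. These splits leaned on single libraries. At 11 against 25 °C the rises were 8 without replicate 2 at 11 °C, or 9 where replicate 1 at 25 °C was left out. At 13 against 25 °C the split turned to 10 rises and 7 falls without replicate 1 at 13 °C. At 11 against 13 °C it was 12 and 2 or 8 and 3 without replicate 1 or 2 at 11 °C, and 7 and 5 or 10 and 3 without replicate 1 or 2 at 13 °C. Receptors rose for the most part. Of 4 measured, 3 rose at 11 against 25 °C and none fell, and 3 rose and 1 fell at 13 against 25 °C. With 4 loci these counts are a description, to be read beside the same shares. LOC_Os03g49500, described as an ethylene receptor, read 87.2 and 98.8 at 11 °C, 46 and 53.7 at 13 °C against 22.2 and 19.9 at 25 °C. It stepped up from 25 to 13 °C (1.20 ± 0.21, adjusted p = 0.00241) and from 13 to 11 °C (0.89 ± 0.21, adjusted p = 0.0129), the second step being lost without replicate 2 at 11 °C (0.0901) or replicate 1 at 13 °C (0.0981).

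LOC_Os05g06320, also described as an ethylene receptor, read 7.76 and 8.48, 11.1 and 13.3, and 0.542 and 0.959 at 11, 13 and 25 °C, 10.8 times higher at 11 °C (2.39 ± 0.25, adjusted p = 0.000189) and 16.3 times higher at 13 °C (2.92 ± 0.25, adjusted p = 9.91e-05). The 2 matches to the Arabidopsis receptor EIN4 parted. LOC_Os02g57530 read 23 and 29.4, 13.6 and 18.4, and 5.12 and 5.3 and rose at both temperatures (2.12 ± 0.25, adjusted p = 0.000314, and 1.44 ± 0.25, adjusted p = 0.00244). LOC_Os04g08740 read 6.86 and 6.57, 1.72 and 1.84, and 6.64 and 7.23, low at 13 °C only (-1.51 ± 0.23, adjusted p = 0.00124; -0.04 ± 0.23 at 11 °C).

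Loci for ethylene synthesis moved both ways. Of 12 described as ACC oxidase, the enzyme that releases ethylene, or as its homologs, 2 rose and 6 fell at 11 °C. At 13 °C 3 rose and 5 fell. The shares of all loci that rose and fell were 28.6% and 21.4% at 11 °C and 26.3% and 17% at 13 °C. The 2 rises at 11 °C were LOC_Os09g27820, matched to rice ACC oxidase 1, and the homolog LOC_Os06g14400. LOC_Os09g27820 read 3.5 and 1.64, 1.49 and 0.693, and 0.13 and 0.22 at 11, 13 and 25 °C (1.55 ± 0.30 at 11 °C, adjusted p = 0.00344). LOC_Os05g05680 read 6.23 and 8.75, 12.1 and 14.2, and 47.9 and 58.4 at 11, 13 and 25 °C (-2.68 ± 0.25, adjusted p = 0.000106, and -1.93 ± 0.25, adjusted p = 0.000575), and its neighbour LOC_Os05g05670 read 0.715 and 0.812, 1.57 and 2.4, and 6.67 and 8.29 (-2.26 ± 0.25, adjusted p = 0.000221, and -1.51 ± 0.25, adjusted p = 0.00178). For both the 11 against 13 °C call (-0.75 ± 0.25 and -0.74 ± 0.25, each at adjusted p = 0.0471) was lost without any 1 library at these temperatures. Both were also lost with no filter (0.0749 and 0.11) and in the fit on recovered reads (0.0559 and 0.0516). The call of LOC_Os05g05680 was lost without either 25 °C library too, and with the 4 libraries alone (0.0678). LOC_Os09g27750 moved in opposite directions: 29 and 28.8 at 11 °C, 146 and 178 at 13 °C against 78.7 and 100 at 25 °C, a fall of -1.59 ± 0.22 (adjusted p = 0.000745) and a rise of 0.85 ± 0.22 (adjusted p = 0.0162; 0.123 without replicate 2 at 13 °C, 0.0703 without replicate 1 of the 25 °C group).

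Of the ACC oxidase homologs, LOC_Os08g30150 was high at 13 °C alone (0.492 and 0.365, 3.32 and 3.74, and 0.429 and 0.622), and LOC_Os08g30210 was low at 11 °C (1.45 and 1.85, 4.95 and 5.1, and 6.8 and 8.52). LOC_Os08g30150 reached an RPKM of 1 at 13 °C only. It met the level through that group, so its order is no separate evidence of a 13 °C peak. The only ACC synthase locus that passed, LOC_Os04g48850, read 0.995 and 1.51 at 11 °C, 0.081 and 0.0733 at 13 °C (3 reads each) against 2.72 and 2.04 at 25 °C, a fall of -1.64 ± 0.21 at 13 °C (adjusted p = 0.000562). Its fall at 11 °C of -0.59 ± 0.21 (adjusted p = 0.0461) was lost without replicate 1 at 11 °C (0.223), either replicate at 13 °C (0.071 and 0.0729) or replicate 1 at 25 °C (0.16), and in the fit on recovered reads (0.0644).

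Of 21 signalling loci, 8 rose and 1 fell at 11 against 25 °C, beside 28.6% and 21.4% of all loci. At 13 against 25 °C 3 rose and 4 fell, beside 26.3% and 17% of all loci. At 11 against 13 °C 8 rose and 2 fell, beside 17.2% and 18.2%. Of the 21, 8 are described as the kinase CTR1, a description that related kinases can carry too. LOC_Os05g46240, matched to REVERSION-TO-ETHYLENE SENSITIVITY1, a partner of the receptor ETR1 in Arabidopsis, had the largest rise, with 43.1 and 69.3 at 11 °C, 9.01 and 13.9 at 13 °C against 4.04 and 6.23 at 25 °C (3.21 ± 0.33 at 11 °C, adjusted p = 0.000171). Its rise at 13 °C of 1.02 ± 0.33 (adjusted p = 0.0381) was lost without replicate 2 at 13 °C (0.206) or replicate 1 at 25 °C (0.187), and with no filter (0.0933). LOC_Os06g08280, one of the CTR1 matches, rose at 11 °C by 1.71 ± 0.29 (adjusted p = 0.00187) and at 13 °C by 1.49 ± 0.29 (adjusted p = 0.00433). Of the other CTR1 matches, LOC_Os06g43840 rose at 11 °C by 1.21 ± 0.24 (adjusted p = 0.00416). LOC_Os04g52140 fell at 11 °C (-0.69 ± 0.22, adjusted p = 0.0316) and LOC_Os02g32610 at 13 °C (-1.54 ± 0.35, adjusted p = 0.00912). The remaining CTR1 matches were not called against 25 °C.

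LOC_Os07g48630, matched to the EIN3 relative EIL1, which carries the ethylene signal to ERF genes in Arabidopsis, read 170 and 228 at 11 °C, 65.9 and 80.7 at 13 °C against 114 and 129 at 25 °C. It rose at 11 °C by 0.70 ± 0.24 (adjusted p = 0.0408) and fell at 13 °C by 0.72 ± 0.24 (adjusted p = 0.0399), and each of these calls was lost in 5 of 6 fits that left out 1 library (up to 0.251 without replicate 2 at 11 °C for the rise, and up to 0.228 without replicate 1 at 13 °C for the fall). The difference between 11 and 13 °C of 1.42 ± 0.24 (adjusted p = 0.0031) was kept in all 6. LOC_Os02g10700, matched to EBF1, the F-box protein that marks EIN3 for breakdown in Arabidopsis, was also lowest at 13 °C, with 72.6 and 72.3, 27.2 and 29.1, and 102 and 78.5 (-1.63 ± 0.21 at 13 °C, adjusted p = 0.000648; -0.30 ± 0.21 at 11 °C, adjusted p = 0.278). Other EIN3 family matches did not all follow LOC_Os07g48630. LOC_Os09g31400, matched to EIL3, rose at 11 against 25 °C (0.64 ± 0.23, adjusted p = 0.0448). LOC_Os03g20790, matched to EIN3, was called in no comparison. LOC_Os02g46370, also matched to EIN3, reached an RPKM of 1 at 13 °C only. It was lower at 11 than at 13 °C (-0.83 ± 0.27, adjusted p = 0.047). Of the EIN2 matches, LOC_Os07g06130 rose at 11 °C (1.035 ± 0.27, adjusted p = 0.014) and LOC_Os03g49400 was not called.

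**Figure D5:**
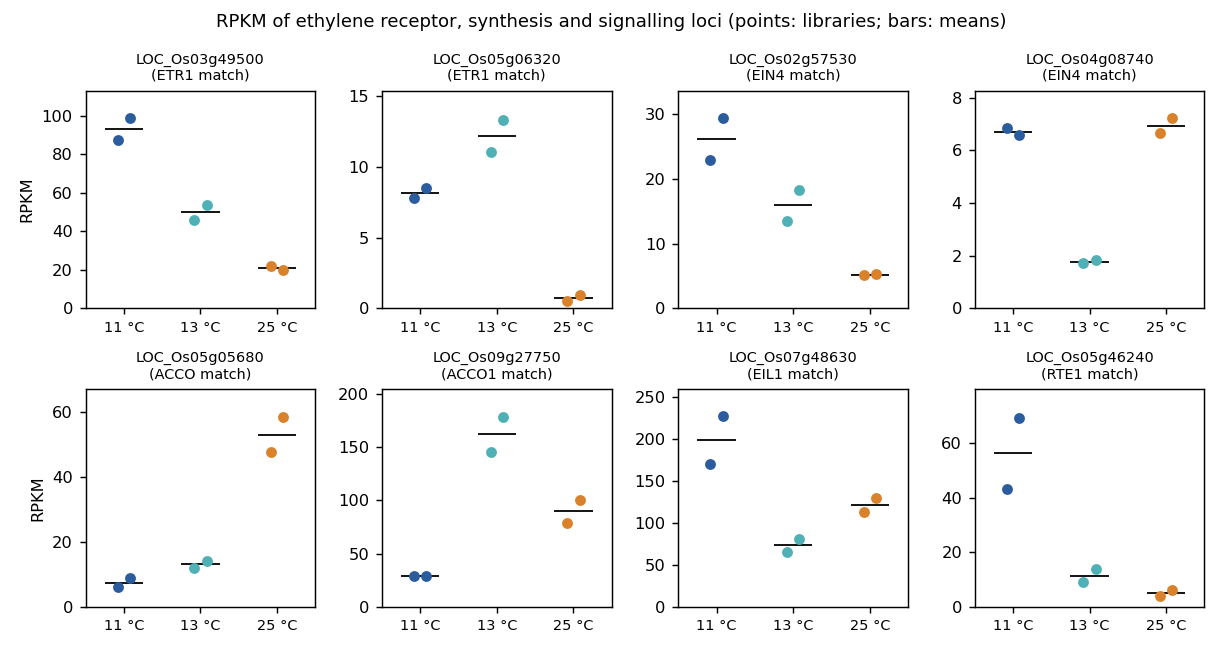
RPKM (linear axis from 0) of 8 ethylene pathway loci by temperature, with 1 point per library and a bar at the mean; the upper row holds the 4 receptors, the lower row 2 ACC oxidases and the EIL1 and RTE1 matches. The receptors LOC_Os03g49500, LOC_Os05g06320 and LOC_Os02g57530 are lowest at 25 °C and LOC_Os04g08740 is lowest at 13 °C.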

How the data were processed

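RNA of stems and leaves of LTH rice seedlings, 2 libraries at each of 3 temperatures, was prepared with Trizol and an NEBNext Ultra kit and sequenced on an Illumina HiSeq, per the labels' protocols. TopHat2 2.0.12 is named in the submitters' processing notes; the build, gene models, counter and strand setting behind the table are not given in the sources used, and coordinates are printed unchanged. The authors deposited RPKM per locus and library. Library totals were recovered from single-exon loci. With them the RPKM of 19428 of 19438 tested loci (99.9%), and of all 55 factors, came out as whole reads within a tolerance of 0.02.

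Loci where at least 2 of 6 libraries reached an RPKM of 1 were tested as log2(RPKM + 1), with limma 3.58.1 in R 4.3.3 (all 6 libraries, mean-variance trend, 3 contrasts, Benjamini-Hochberg over 19438 loci, threshold 0.05), after tests on simulated data. Differences on this scale understate the change of low loci. Fold values are ratios of mean RPKM. Values after ± are SE for log2 differences. Alternatives were a pseudocount of 0.1, no filter, quantile and median-ratio scaling, no trend, only the 4 libraries compared, each library left out and a replicate block; limma with voom weights on recovered reads, the count with all 59 loci, and a pathway list without the ACC oxidase homologs and loci matched to CTR1 by description alone were added after seeing the data. Leaving out a library leaves 1 at its temperature, which is then assumed to vary like the others.

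The members and lists were chosen with earlier results of these data known. A rule named 34 factors (every AP2-like and B3 locus, the 6 largest called ERF rises and falls per comparison, the 5 most abundant, the opposite calls and the 3 most abundant without a call) and 14 pathway loci (receptors and the 3 largest called rises and falls); other loci named were chosen after their values were seen. Promoter and protein searches were not run, and sequences were not used here.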

Additional observations from a re-analysis of the deposited data

Results flagged for a closer look

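At 5 loci the differences from 25 °C were called in opposite directions at 11 and 13 °C, and for each the difference between the temperatures was itself called (limma, 11 against 13 °C, log2 of RPKM + 1). LOC_Os09g11460, an ERF073 match, fell at 11 and rose at 13 °C, and differed by -2.35 between them (adjusted p = 0.000236). LOC_Os09g39850, an ERF1B match, rose at 11 and fell at 13 °C (3.77, adjusted p = 0.000291). LOC_Os02g43790, matched to ERF1 of tomato, did the same (3.63, adjusted p = 0.00103). Of the pathway loci, the ACC oxidase locus LOC_Os09g27750 fell at 11 and rose at 13 °C (-2.44, adjusted p = 0.000255), and the EIL1 match LOC_Os07g48630 rose at 11 and fell at 13 °C (1.42, adjusted p = 0.0031). At each of the 5 at least 1 call against 25 °C was lost when 1 library was left out: the fall of LOC_Os09g11460 in 3 of 6 such fits, the rise of LOC_Os09g39850 in 1, the rise and fall of LOC_Os02g43790 in 1 and 2, the rise of LOC_Os09g27750 in 2, and both calls of LOC_Os07g48630 in 5 each. The 11 against 13 °C calls were kept in all 6.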

How the results depend on the processing

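The total counts of called factors stayed within 1.5 times the reported ones under every alternative run: 33 to 42 at 11 against 25 °C (37 reported), 25 to 36 at 13 against 25 °C (29) and 35 to 43 at 11 against 13 °C (36) when no library was left out. Leaving out 1 library gave 29 to 37, 23 to 29 and 30 to 38. By direction, the 10 falls at 11 against 25 °C became 6 without replicate 1 at 11 °C; other counts of rises or falls among the factors stayed within 1.5 times. Of the reported calls, 24 of 37, 22 of 29 and 27 of 36 were kept whichever library was left out. For the ethylene pathway the same ranges were 15 to 19 (22 reported), 15 to 21 (21) and 11 to 18 (20); at 11 against 13 °C the count was 11 without replicate 2 at 11 °C, 12 without replicate 1 at 13 °C and 13 without replicate 2 there. No called difference of a named locus reversed.

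Replicate numbers may pair the libraries: the deviations of replicate 1 from its temperature mean correlated over all loci with r of 0.713, 0.610 and 0.669 between temperatures, yet with only 2 numbers, and no batch named in the labels, they count as numbers only. A replicate block gave 42, 36 and 43 called factors. Called pathway loci rose from 21 to 32 with the block at 13 against 25 °C (13 rises, 19 falls); the cause was not tested. Of the separate differences of named factors, 8 became called with the block and none lost its call: LOC_Os01g04750 at 13 against 25 °C (adjusted p = 0.0426) and 11 against 13 °C (0.0493), LOC_Os04g57340 at 11 against 25 °C (0.0255) and 11 against 13 °C (0.0240), LOC_Os04g46220 (0.00415) and LOC_Os06g11860 (0.0324) at 11 against 25 °C, LOC_Os09g26420 at 13 against 25 °C (0.0433) and LOC_Os03g08490 at 11 against 13 °C (0.0489).

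With 2 libraries a group the interval of a log2 difference is wide, and a locus at 1 read has no usable ratio. Library totals of 15964798 to 18754726 reads limit the precision of loci below an RPKM of about 1. The planned searches of promoters and proteins were not run.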
